A study of Mus musculus with 19 samples.

Results

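The enzymes that bring pyruvate into the mitochondrion and turn the tricarboxylic acid (TCA) cycle were followed as a set of 36 named genes, of which 35 had probes on the arrays. Pck1 was not analysed here, and nothing below includes it. Members were found by gene name, and they accounted for 62 of the 41174 probes and for 35 of the 27793 gene names on each array. They were grouped by role into the pyruvate dehydrogenase complex (5 genes), its kinases and phosphatase (5), enzymes by which carbon enters or leaves the cycle elsewhere (6), cytosolic counterparts of cycle enzymes (3), the cycle from citrate to succinyl-CoA (7) and the cycle from succinyl-CoA to oxaloacetate (9).

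Expression was measured on 1-colour Agilent arrays, 1 array per sample, in 4 mouse groups. C2C12 cells are a mouse myoblast line that can fuse into muscle fibres in culture. The 6 arrays named C2C12 WT were of cells carrying empty plasmids, and the 6 named C2C12 HDAC4&5 were of cells carrying wild-type human HDAC4 in pIRES neo3 and wild-type human HDAC5 in pIRES hyg3. HDAC4 and HDAC5 are class IIa histone deacetylases, corepressors best known in muscle for restraining MEF2 transcription factors. Both lines were stably selected with Hygromycin B and Geneticin at 500 µg/ml each and were harvested 48 h after seeding. The drugs were thus common to both groups, and the number of clones behind each line is not given in the sources used here. The cells were collected as myoblasts, since the overexpressing line did not go on to form myotubes according to the study's methods. The soleus arrays were of male C57BL6J mice aged 12 weeks and fasted for 5 h. The 3 controls, named Con, were heterozygous littermates (db -/+), so that they too carried the db allele, and the 4 others, named db, were homozygous (db +/+, or db/db), a genotype without functional leptin receptor signalling that leads to obesity and diabetes. The comparisons asked how these enzymes differed with HDAC4 and HDAC5 in cells, with db/db in muscle, and between muscle and cells.

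Pyruvate made in glycolysis is oxidised to acetyl-CoA by the pyruvate dehydrogenase complex, and this step is switched off when a pyruvate dehydrogenase kinase phosphorylates the complex and switched on again by a phosphatase. The acetyl group then joins oxaloacetate to form citrate, and the cycle releases its carbon while passing electrons to the respiratory chain. Pyruvate carboxylase, malic enzymes and phosphoenolpyruvate carboxykinases add or remove cycle intermediates. In skeletal muscle the kinases, Pdk4 above all, are known to rise in fasting and diabetes, when fatty acids replace glucose as fuel.

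Each value below is log2 of a probe's processed signal less the 75th percentile of signal on that array, so that 0 is that percentile and a difference of 1 is a doubling. Values are compared between groups for the same probe only. The 75th percentile lay at an intensity of 512 to 1561 on C2C12 WT arrays, 401 to 744 on C2C12 HDAC4&5 arrays, 141 to 470 on Con arrays and 157 to 500 on db arrays. The arrays lay on 5 slides, and the soleus arrays differed by slide. On slide 4 (Con 1 and 2, db 1 and 2) 1 or 2 member probes per array were saturated, and on slide 5 (Con 3, db 3 and 4) 16 to 21 were. The labelled cell types were set against markers. The 12 muscle fibre genes were well above background on every soleus array. In C2C12 WT cells Myod1, the defining myoblast factor, was well above background on 6 of 6 arrays, and in C2C12 HDAC4&5 cells on 0 of 6. Of the 12 muscle fibre markers 11 were lower in C2C12 HDAC4&5 cells and 1 (Myh7, by 1.47) higher, and their summed level relative to the 75th percentile was 68.4 to 126 in WT and 1.97 to 2.32 in HDAC4&5 arrays. The 3 myoblast markers tested (Myod1, Cdh15 and Myog) were all lower. Myf5 and Pax7, also listed as myoblast markers, were well above background on 0 of 6 arrays of each line. Of markers of other cells, 3 fibroblast genes were higher and 2 lower (summed level 82.5 to 155 in WT and 97.3 to 120 in HDAC4&5 arrays), 1 of 2 adipocyte genes was higher and 1 lower, 2 of 3 macrophage genes were higher and 1 lower, the 1 erythroid gene tested was lower, and 0 endothelial genes could be tested. Whether this loss of muscle genes has a part in the differences of the enzymes below was not tested. Less RNA per cell and fewer cells of a type cannot be told apart in such bulk samples.

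In C2C12 cells the enzymes did not move as a block. With HDAC4 and HDAC5, 11 of the 35 members were higher and 12 were lower in limma (Benjamini-Hochberg adjusted p under 0.05), and their median difference was 0.02, beside 0.07 over all genes tested. The largest differences were in the regulators of pyruvate dehydrogenase and in side enzymes of the cycle. Pdk4 fell by 2.86 and Pdk1 by 1.73 on the log2 scale, while the malic enzyme Me3 rose by 2.43, pyruvate carboxylase (Pcx) by 1.75 and Pdk3 by 1.05. Of the cycle enzymes Idh2 moved furthest and fell by 0.99. These counts are to be read against a broad difference between the lines, since 66.9% of the 14142 genes tested passed the same threshold, 36.2% higher and 30.7% lower. The values of the 2 groups did not overlap for 21 members, and for 7319 of the 14142 genes. Outlier spots are left out of both counts. Among the 21, Idh3b kept only 2 WT values and 1 HDAC4&5 value, and Dlat and Sdhb overlapped when outlier spots were kept. In the deposited matrix, which is scaled differently and had an all-gene median of -0.12, 33 members and 13384 genes were tested. Of the 33 members 5 were higher and 14 lower, against 2757 higher and 4468 lower of the 13384 genes.

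**Figure D1:**
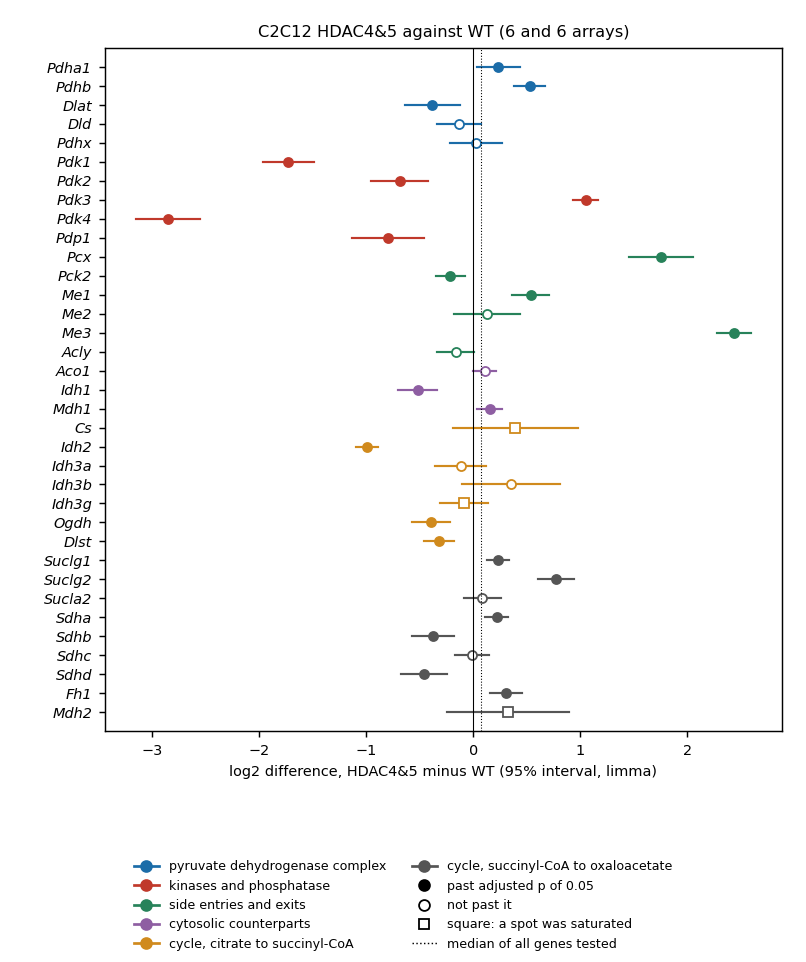
Log2 difference between C2C12 HDAC4&5 (6 arrays) and C2C12 WT (6 arrays) for each of 35 enzymes, coloured by role. Horizontal bars are 95% intervals from limma, filled symbols passed an adjusted p of 0.05, squares had a saturated spot, and the dotted line is the median of all genes tested (0.07). Pdk4 and Pdk1 lie furthest to the left and Me3 and Pcx furthest to the right, and most cycle enzymes lie within 0.5 of 0.

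All 5 regulators of pyruvate dehydrogenase passed the test, 4 of them lower and 1 higher. Pdk4, the kinase induced in fasted muscle, had a lowest, median and highest value of 1.03, 1.23 and 1.58 in WT and of -1.96, -1.61 and -1.26 in HDAC4&5 arrays, so that the groups lay far apart. It fell by 2.86 (SE 0.14, adjusted p = 7.69e-10, limma), a 7.24-fold lower signal, and by 2.82 to 2.93 within each of the 3 slides. Its probe lies at chr6:5433441-5433500 on the minus strand (mm9).

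Pdk1, a kinase known as a target of the hypoxia factor HIF-1, had values of -2.03, -1.94 and -1.54 in WT and of -3.81, -3.60 and -3.29 in HDAC4&5 arrays. It fell by 1.73 (SE 0.11, adjusted p = 1.07e-08, limma), with no overlap, at a probe at chr2:71741820-71741879 on the plus strand (mm9). A further Pdk1 probe fell by 0.37, so that the 2 probes gave the same direction and unequal sizes. With normexp background correction the main probe fell by 0.64.

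Pdk2, the kinase expressed most widely across tissues, was dimmer, between -3.31 and -2.96 in WT and between -4.15 and -3.43 in HDAC4&5 arrays, where every array was still well above background. It fell by 0.69 (SE 0.12, adjusted p = 2.45e-04, limma), but this was lost with normexp background correction, where the difference was 0.04. Pdp1, the phosphatase that reactivates the complex, had values of 0.15, 0.21 and 0.82 in WT and of -0.70, -0.58 and -0.07 in HDAC4&5 arrays. It fell by 0.80 (adjusted p = 4.61e-04, limma), and by 1.32 at its other probe. Lower signals were thus found both for kinases and for the phosphatase that opposes them.

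Pdk3 was the exception among the kinases. Its values were -0.64, -0.58 and -0.48 in WT and 0.40, 0.44 and 0.63 in HDAC4&5 arrays, and it rose by 1.05 (SE 0.05, adjusted p = 1.06e-09, limma) and by 1.21 at its other probe. The direction of all 5 regulators was the same on each of the 3 slides, which hold the same arrays that gave these calls.

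**Figure D2:**
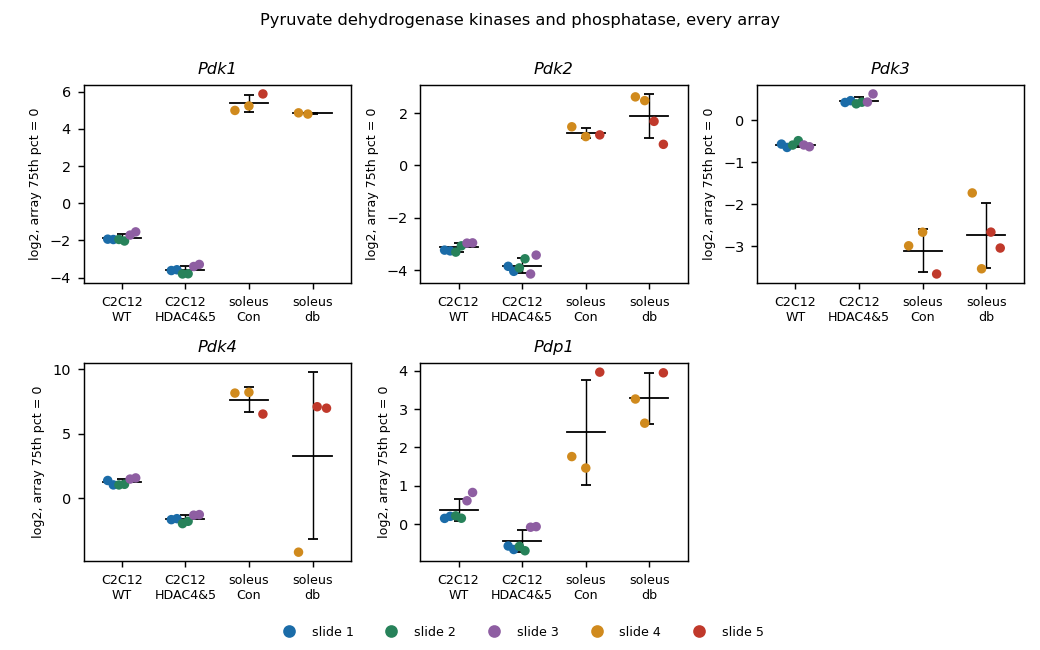
Value of every array for the 4 pyruvate dehydrogenase kinases and the phosphatase Pdp1 in the 4 groups, as log2 processed signal with the array's 75th percentile at 0, coloured by slide. Horizontal lines are means and error bars SD over the arrays shown, and spots marked as outliers are missing. In C2C12 cells Pdk1, Pdk2, Pdk4 and Pdp1 are lower and Pdk3 higher with HDAC4&5 without overlap, and in db soleus muscle the Pdk4 mean is drawn down by 1 array at -4.17.

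Among the 5 subunits of the complex itself 2 were higher, 1 was lower and 2 did not pass. Pdhb, the beta subunit of the decarboxylase, had values of 3.70, 3.79 and 4.03 in WT and of 4.27, 4.33 and 4.52 in HDAC4&5 arrays, and it rose by 0.52 (adjusted p = 1.36e-05, limma) at one probe and by 0.51 at the other. Pdha1, the alpha subunit that the kinases phosphorylate, was 0.23 higher at its brighter probe (adjusted p = 0.0395) and 0.17 lower at the dimmer one, and both passed the test, so no direction can be given for the gene. Dlat, the acetyltransferase core, fell by 0.38 (adjusted p = 0.0149) with only 2 WT values, since 4 WT spots were marked as outliers, and its other probe fell by 1.12. Dld, the dehydrogenase shared with the oxoglutarate complex, differed by -0.14 (95% interval -0.34 to 0.07), and it passed the test with the replicate number as a block (adjusted p = 0.0237). Pdhx, which anchors Dld in the complex, differed by 0.02 (95% interval -0.22 to 0.26), while its dimmer probe was 0.40 lower and passed the test.

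Of the 6 enzymes that feed or drain the cycle 3 were higher, 1 was lower and 2 did not pass, and the group held the largest rise of any member. Me3, the mitochondrial malic enzyme that uses NADP, had values of -3.90, -3.84 and -3.60 in WT and of -1.51, -1.41 and -1.13 in HDAC4&5 arrays. It rose by 2.43 (SE 0.07, adjusted p = 5.93e-12, limma), a 5.41-fold higher signal, at a probe at chr7:96996441-96996500 on the plus strand (mm9), and by 2.40 to 2.46 within slides. The probe was well above background on all 12 arrays. Further Me3 probes were so on at most 1 of 6 WT arrays, 0 of 6 HDAC4&5 arrays and 0 of 3 Con arrays. They were not tested, so the Me3 values here rest on 1 probe.

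Pcx, which carboxylates pyruvate to oxaloacetate, had values of 0.37, 0.73 and 1.15 in WT and of 2.34, 2.48 and 2.88 in HDAC4&5 arrays. It rose by 1.75 (SE 0.14, adjusted p = 1.13e-07, limma), a 3.37-fold higher signal, at a probe at chr19:4621637-4621696 on the plus strand (mm9). Me1, the cytosolic malic enzyme that supplies NADPH for lipid synthesis, rose by 0.54 (adjusted p = 4.68e-05), from 2.31 to 2.65 in WT to 2.82 to 3.19 in HDAC4&5 arrays. The other Me1 probe rose by 0.75 with overlapping ranges and did not pass. Me3, Pcx and Me1 encode enzymes of the exchange between pyruvate, malate and oxaloacetate. At the probe that stood for the gene all 3 showed no overlap between the groups, as did 7319 of all 14142 genes. Me2 and Mdh1, of the same exchange, gave overlapping ranges, and Mdh2 was saturated.

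The remaining side enzymes moved little. Pck2, the mitochondrial phosphoenolpyruvate carboxykinase, fell by 0.22 (adjusted p = 0.00715), with ranges that overlapped. Me2, the mitochondrial malic enzyme that uses NAD, differed by 0.13 (95% interval -0.18 to 0.43), and it passed the test with slide as a block (adjusted p = 0.0481). Acly, which splits exported citrate into acetyl-CoA for lipid synthesis, differed by -0.17 (95% interval -0.34 to 0.01, adjusted p = 0.0849), and it passed the test with the replicate number as a block (adjusted p = 0.0276).

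**Figure D3:**
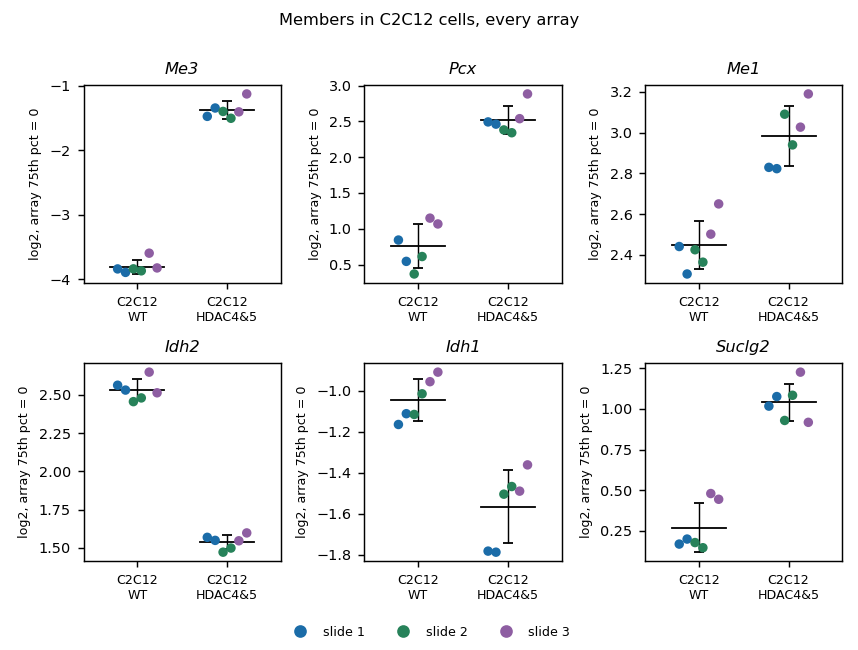
Value of every C2C12 array, as log2 processed signal with the array's 75th percentile at 0, for Me3, Pcx, Me1, Idh2, Idh1 and Suclg2, coloured by slide. Horizontal lines are means and error bars SD over 6 arrays. The groups do not overlap in any panel: Me3, Pcx, Me1 and Suclg2 are higher and Idh2 and Idh1 lower with HDAC4&5.

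The promoters of the 2 members that fell furthest and the 2 that rose furthest are printed next, so that their start regions can be set beside these values. Each is the run of 250 bases before the start of the gene from RefSeq (GRCm38.p6), read 5′ to 3′ on the strand of the gene, in lower case with each E-box (CANNTG, the core bound by MyoD and other helix-loop-helix factors) in capitals. Pdk4 is at chr6:5496279-5496528 on the minus strand, Pdk1 at chr2:71872974-71873223, Me3 at chr7:89632568-89632817 and Pcx at chr19:4510222-4510471, the last 3 on the plus strand.
Pdk4: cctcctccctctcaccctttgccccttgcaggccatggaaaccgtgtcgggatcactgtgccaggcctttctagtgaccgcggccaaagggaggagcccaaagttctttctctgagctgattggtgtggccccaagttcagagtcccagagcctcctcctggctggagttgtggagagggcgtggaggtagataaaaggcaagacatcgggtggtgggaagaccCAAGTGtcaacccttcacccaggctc
Pdk1: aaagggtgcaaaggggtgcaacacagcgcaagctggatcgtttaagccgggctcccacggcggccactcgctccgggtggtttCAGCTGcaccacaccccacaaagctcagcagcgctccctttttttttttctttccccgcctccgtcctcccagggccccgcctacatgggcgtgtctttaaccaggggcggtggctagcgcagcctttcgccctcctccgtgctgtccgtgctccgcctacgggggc
Me3: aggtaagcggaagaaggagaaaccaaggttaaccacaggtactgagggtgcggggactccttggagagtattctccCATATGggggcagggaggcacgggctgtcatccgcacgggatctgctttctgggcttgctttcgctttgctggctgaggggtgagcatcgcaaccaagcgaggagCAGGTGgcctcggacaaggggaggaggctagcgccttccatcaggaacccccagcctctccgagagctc
Pcx: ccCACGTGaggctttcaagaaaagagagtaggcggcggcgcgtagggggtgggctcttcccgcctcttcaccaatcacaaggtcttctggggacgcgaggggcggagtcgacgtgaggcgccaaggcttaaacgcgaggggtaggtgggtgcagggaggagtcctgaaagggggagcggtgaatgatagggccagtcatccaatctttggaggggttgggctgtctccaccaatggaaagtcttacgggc

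An E-box was thus present in all 4, in those of the lower and of the higher genes. Of the 35 members 31 had a promoter sequence, and in the 250 bases before the start, on both strands, 20 of the 31 held a CANNTG (64.5%), beside 66% of all 27025 promoters. The extended nuclear receptor site AAGGTCA was found in 0 of the 31 and in 4.05% of all promoters, and a MEF2 site in 0 of the 31 and in 3.01%. The letters of these windows are a description only.

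Among the cytosolic counterparts the isocitrate enzyme was lower. Idh1, which makes NADPH from isocitrate in the cytosol, had values of -1.16, -1.06 and -0.91 in WT and of -1.79, -1.50 and -1.36 in HDAC4&5 arrays, and it fell by 0.52 (adjusted p = 1.03e-04, limma). Mdh1, of the malate-aspartate shuttle, was 0.15 higher (adjusted p = 0.0276) with overlapping ranges, and 0.05 lower in the deposited matrix. Aco1, which is also the iron sensor IRP1, differed by 0.10 (SE 0.05, adjusted p = 0.0727), and it passed the test with the replicate number as a block (adjusted p = 0.0455).

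From citrate to succinyl-CoA 3 of 7 enzymes were lower and 0 were higher. Idh2, the mitochondrial isocitrate dehydrogenase that makes NADPH, had values of 2.46, 2.52 and 2.65 in WT and of 1.47, 1.55 and 1.60 in HDAC4&5 arrays. It fell by 0.99 (SE 0.05, adjusted p = 6.91e-10, limma), a 1.99-fold lower signal, and by 0.98 to 1.01 within slides, at a probe at chr7:87242779-87242838 on the minus strand (mm9). Both NADP-linked isocitrate dehydrogenases were therefore lower.

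Ogdh and Dlst, the decarboxylase and the transferase of the oxoglutarate dehydrogenase complex, fell by 0.39 (adjusted p = 8.43e-04) and by 0.32 (adjusted p = 5.89e-04), each without overlap. Of the NAD-linked isocitrate dehydrogenase, Idh3g differed by -0.09 (95% interval -0.31 to 0.13) and Idh3a by -0.12 (-0.36 to 0.11, with 2 WT values). Idh3b kept only 2 WT values (3.95 and 3.98) and 1 HDAC4&5 value (4.31), and the difference of 0.35 did not pass. The brightest probe of citrate synthase (Cs) was saturated on every C2C12 array, which leaves only bounds and no fold. Its unsaturated probe was at 5.38 in WT and 4.89 in HDAC4&5 arrays, 0.49 lower (adjusted p = 1.07e-05 where it stood for the gene).

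From succinyl-CoA to oxaloacetate 4 of 9 enzymes were higher and 2 lower. Suclg2, the GTP-forming subunit of succinyl-CoA synthetase, had values of 0.15, 0.19 and 0.48 in WT and of 0.92, 1.05 and 1.23 in HDAC4&5 arrays. It rose by 0.77 (SE 0.08, adjusted p = 1.46e-06, limma) and by 0.76 at its other probe. Suclg1, the subunit common to both forms of the enzyme, rose by 0.23 (adjusted p = 0.00123). Sucla2, the ATP-forming subunit, differed by 0.08 (95% interval -0.08 to 0.25), but its dimmer probe was 0.47 lower and passed the test.

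Succinate dehydrogenase, which is also complex II of the respiratory chain, was mixed. Its membrane anchor Sdhd fell by 0.46 (adjusted p = 0.00105, limma), without overlap, while the other anchor Sdhc differed by -0.01 (95% interval -0.17 to 0.14). The iron-sulphur subunit Sdhb fell by 0.38 (adjusted p = 0.00273, limma) with 4 HDAC4&5 values, since 2 spots were marked as outliers. Those 4 values did not overlap WT, but the dropped spots, at 4.85 and 4.94, lay within the WT range of 4.84 to 5.20. Sdha, the flavoprotein subunit, was 0.22 higher at its brightest probe (adjusted p = 0.00158), 0.38 higher at a dim one and 0.50 lower at the remaining one, all past the test, so no direction can be given for the gene. Fumarase (Fh1) rose by 0.31 (adjusted p = 0.00162), and malate dehydrogenase Mdh2 was saturated on all 12 arrays, so no fold is given.

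Where a member had several probes tested, all of them gave the same call for 7 genes and no probe was called for 3. Some were called for 6 and calls were opposite for 2 (Pdha1 and Sdha), and 17 members had 1 probe tested. Probes that did not exceed background on all arrays of either group are left out of these counts, among them further probes of Me3, Acly and Sucla2. An exact permutation test over 6 and 6 arrays, two-sided, cannot go below p = 0.00216. The exact p was at the smallest value their numbers allowed for 20 members and under 0.05 for 23. These were not the same 23 as in limma. Dlat, called in limma, had an exact p of 0.0714, the smallest its numbers allowed, and Aco1, not called, had an exact p of 0.0173. With normexp background correction Dlat, Fh1, Idh1, Mdh1, Pdha1, Sdha and Suclg1 no longer passed, besides Pdk2. Every one of the 23 called members kept its sign on all slides that gave a value, as did 8 of the 10 uncalled members with several slides. The 23 were called on these same arrays, so their signs by slide are a description and no further test. Nothing says which C2C12 arrays came from separate cultures, so that these p-values measure the spread between arrays.

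In soleus muscle no difference between db/db and control mice could be shown for these enzymes. Of 34 members tested, 0 passed the adjusted p in limma, beside 2 of 13045 genes in all (0.0153%), and 0 had an unadjusted p under 0.05 in limma or in the methods' t-test, beside 5.91% of genes in limma. Their median difference was 0.11, beside 0.14 over all genes, and 22 of 34 were above 0. Pdk3 was not tested, as it was well above background on only 1 of 3 Con and 3 of 4 db arrays. A saturated spot was present in 17 of the 34 and an outlier spot in 14, and the exact permutation test of 3 against 4 arrays cannot go below p = 0.0571.

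The groups did not overlap for 1 member, Pdk1, beside 9.68% of all genes. Its Con values were 4.99, 5.23 and 5.88 and its db values 4.86 and 4.79, with both db spots of slide 5 marked as outliers. The difference of -0.54 (95% interval -1.60 to 0.53, adjusted p = 0.968, limma) turned to 0.14 when outlier spots were kept and to 0.38 in the deposited matrix, so no direction is given.

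The members named next in soleus muscle were chosen after their values were seen. Pdk4 was at 8.14, 8.20 and 6.52 in Con and at -4.17, 7.09 and 6.98 in db arrays, with db 2 marked as an outlier and db 1 not well above background. The difference of -4.32 (95% interval -10.83 to 2.18, adjusted p = 0.958, limma) rested on that single array. Within slide 5 the db arrays were 0.51 above the control, but 1 db spot of Pdk4 was saturated, so that size is uncertain. Pdhx was likewise at -4.27 and not well above background on db 2, at 7.26 and saturated on db 3, and at 3.34 and 3.73 on the 2 Con arrays that gave a value. At its other probe, where these extremes were absent, Con was at 0.47, 0.40 and 0.32 and db at 1.53, -0.04 and 0.24.

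Several members differed more within slide 4 than within slide 5. Idh2 was at 4.82, 4.02 and 7.09 in Con and at 6.31, 5.49, 7.34 and 7.00 in db arrays, where the 3 highest values are the saturated spots of slide 5. Its difference was 1.22 (95% interval -0.50 to 2.94, adjusted p = 0.946), being 1.48 within slide 4 and 0.08 within slide 5, the latter with all 3 spots saturated. Pdp1 differed by 1.34 and -0.02 within those slides, and Pdk2 by 1.26 and 0.08. Suclg2 was the more even, at 0.68 and 0.71, with Con values of 1.75, 2.12 and 2.83 and db values of 2.75, 2.47, 4.04 and 3.04. Of the 27 members with a difference on both slides 13 had the same sign on each.

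**Figure D4:**
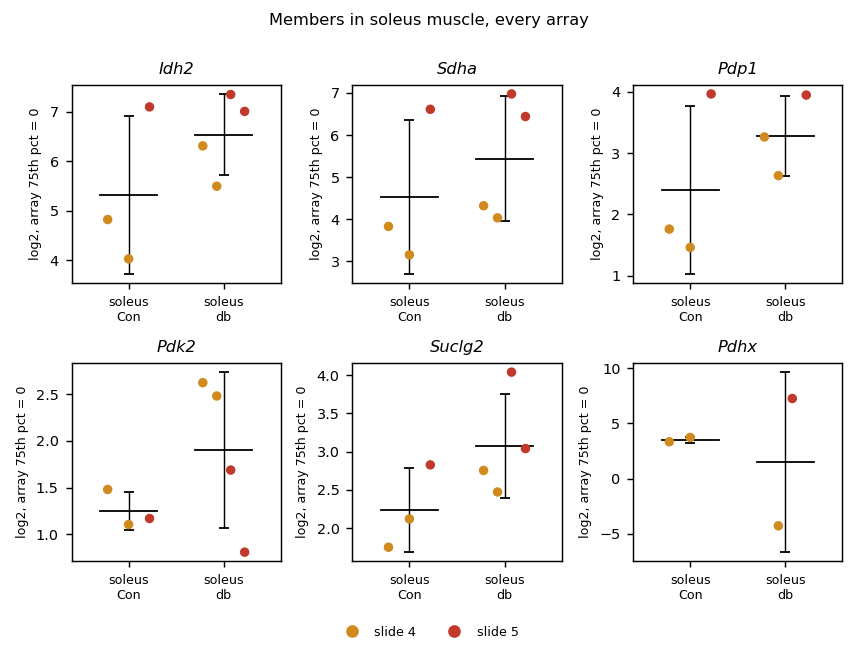
Value of every soleus array, as log2 processed signal with the array's 75th percentile at 0, for Idh2, Sdha, Pdp1, Pdk2, Suclg2 and Pdhx, coloured by slide. Horizontal lines are means and error bars SD over the arrays shown, and spots marked as outliers are missing. The slide 5 arrays lie above the slide 4 arrays of both genotypes for Idh2, Sdha and Pdp1, and the Pdhx bars are set by 1 low and 1 saturated db spot.

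With slide as a block 46 of 13042 genes passed (0.353%), and among them was 1 member, Pdhx (-7.81, adjusted p = 0.0130, limma). With the 4 arrays of slide 4 alone, an alternative chosen after seeing the data, the members passing were Pdk4 (-12.34, adjusted p = 0.00399) and Pdhx (-7.81, adjusted p = 0.0143). Each of these calls rested on the same single dim spot as above. At an unadjusted p of 0.05 the slide block gave 7 of 34 members, beside 15.5% of all genes, and of these Me2, Pdp1, Idh2, Suclg2 and Pdk2 were higher in db (by 0.69 to 0.92, adjusted p of 0.308 to 0.321) and Pdhx and Pdk4 lower. The summed level of adipocyte markers, relative to the 75th percentile, was 391 to 758 in Con and 295 to 623 in db arrays. Of the 8 markers 1, leptin (Lep), passed the test, higher in db by 3.79 (adjusted p = 0.0326, limma). Lep was well above background on 1 of 3 Con and 4 of 4 db arrays. It was thus tested through the db arrays, and its size and p rest on Con values mostly not above background. The summed level of muscle fibre markers was 1723 to 3391 in Con and 1583 to 2892 in db arrays, and 0 of 12 passed the test, as was the case for the myoblast (0 of 4), erythroid (0 of 2), macrophage (0 of 5), endothelial (0 of 4) and fibroblast genes (0 of 5).

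Control soleus muscle stood well above C2C12 WT cells in this pathway. Of 35 members 28 were higher in muscle and 5 lower, beside 36.6% of genes higher and 37.9% lower (74.5% of 15061 in all), and the median difference was 1.98, beside -0.03 over all genes. All 5 subunits of the pyruvate dehydrogenase complex were higher (1.72 to 2.84), as were 14 of the 16 enzymes of the cycle itself (0.70 to at least 3.51). The other two, Cs and Mdh2, count among the 28 but were saturated in every value from cells and in 2 and 3 of the 3 from muscle, so no difference is given, and 26 of the remaining 33 members were higher. The unsaturated probe of Cs was 0.64 higher and did not pass (adjusted p = 0.0658, limma). Each slide held only cells or only muscle, and RNA was extracted with an added Trizol step from muscle, so that tissue, slide and extraction cannot be told apart. The summed level of adipocyte markers was 391 to 758 in Con against 2.47 to 2.66 in WT arrays, and all 7 of those tested were higher. Endothelial, erythroid and macrophage markers were also higher in muscle (4 of 4, 2 of 2 and 4 of 5 tested), as were 4 of 5 fibroblast and 11 of 12 muscle fibre genes, while 3 of 3 myoblast genes were lower. The part of these other cells was not tested.

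Pdk1 and Pdk4 differed most, ahead of Me3 below. Pdk1 was at 4.99, 5.23 and 5.88 in Con and at -2.03 to -1.54 in WT arrays, a difference of 7.22 (SE 0.21, adjusted p = 5.13e-10, limma). Pdk4 was higher by 6.36 (SE 0.35, adjusted p = 5.12e-08), with Con values of 8.14, 8.20 and 6.52. Pdk2 was at 1.48, 1.1 and 1.17 in Con and higher by 4.39 (adjusted p = 1.77e-09). Pdk3 lay the other way, at -2.99, -2.66 and -3.66 in Con, lower by 2.52 (adjusted p = 9.47e-07), with 1 of the 3 Con arrays well above background.

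The C2C12 and the tissue comparison share the WT arrays, so their values are given side by side and nothing is drawn from their signs. Against WT, Pdk4 differed by -2.86 in HDAC4&5 cells and by 6.36 in muscle, Pdk1 by -1.73 and 7.22, and Pdk3 by 1.05 and -2.52. Me3 differed by 2.43 and 6.12 and Pcx by 1.75 and 2.10, and Idh2 by -0.99 and at least 2.78.

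Among the side enzymes the malic enzymes split. Me3 was at 2.96, 2.28 and 1.68 in Con and higher by 6.12 (SE 0.24, adjusted p = 4.07e-09, limma), whereas Me2 was at -1.90, -2.44 and -3.50 and lower by 3.54 (adjusted p = 2.71e-06). Me1 differed by 0.43 (95% interval -0.16 to 1.01) at its brighter probe. Its dimmer probe was 3.87 higher and passed the test, so no size can be given for the gene. Pck2 was lower by 2.42 (adjusted p = 3.23e-07). The other lower members, named here after their values were seen, were Acly (1.43 lower) and Aco1 (1.09 lower), and Idh1 differed by -0.34 (adjusted p = 0.0617).

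Of the cycle enzymes Idh3a and Idh3b, subunits of the NAD-linked isocitrate dehydrogenase, were higher by at least 3.51 and 3.31, and the cytosolic Mdh1 by at least 3.40. Sdha was higher by 2.98 (adjusted p = 0.00101) at Con values of 3.83, 3.15 and 6.61, and Idh2 by at least 2.78 (adjusted p = 6.67e-04). Pdhb was higher by at least 2.84, Sucla2 by at least 2.42, and Sdhc by 2.25. A difference is written as at least a value where a Con spot was saturated and no WT spot was, which held for 10 members, and for Idh3b and Sucla2 that spot was the single Con value. Such bounds have no order among themselves. Of the 35 members 13 had a saturated spot, and among the 22 without one 15 were higher and 5 lower. All tested probes gave the same call for 14 of the 18 genes with several tested.

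**Figure D5:**
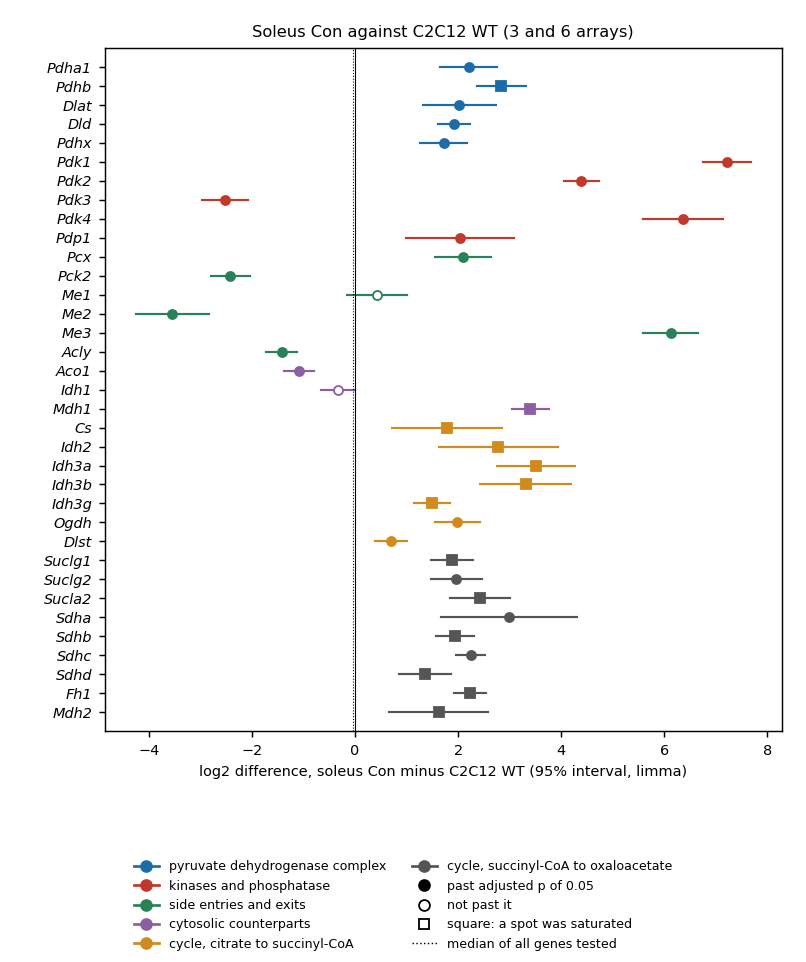
Log2 difference between control soleus muscle (3 arrays) and C2C12 WT cells (6 arrays) for each of 35 enzymes, coloured by role. Horizontal bars are 95% intervals from limma, filled symbols passed an adjusted p of 0.05, squares had a saturated spot, and the dotted line is the median of all genes tested (-0.03). Every enzyme of the complex and of the cycle lies to the right of 0, and Pdk1, Pdk4 and Me3 lie furthest out, with Me2, Pdk3 and Pck2 furthest to the left.

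The neighbouring genes of the pathway were described from a list of carriers, lactate dehydrogenases, aminotransferases and assembly factors. In C2C12 cells 11 of 28 were higher and 10 lower, beside 36.2% and 30.7% of all genes tested. Their median was 0.13, beside 0.07 over all genes. The largest rises were Slc25a13, the liver-type aspartate-glutamate carrier, Ogdhl, a relative of Ogdh, and the glutamate carrier Slc25a22 (0.97). Slc25a13 was well above background on 0 of 6 WT and 6 of 6 HDAC4&5 arrays, so it was tested through the HDAC4&5 arrays alone. Its signal was at least 29.8-fold higher in HDAC4&5 cells, a bound that carries no p-value. Ogdhl rose by 2.09, with 2 of 6 WT arrays well above background. The largest falls were the lactate dehydrogenase subunit Ldhb (1.12 lower), the dicarboxylate carrier Slc25a10 (1.03 lower) and D2hgdh, a hydroxyglutarate dehydrogenase (0.67 lower).

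In soleus muscle 0 of 27 of these genes passed between db and Con, beside 0.0153% of all genes. Between muscle and WT cells 23 of 28 were higher and 3 lower, beside 36.6% and 37.9% of all genes. The largest rises were Acss1, the mitochondrial acetyl-CoA synthetase (at least 3008-fold higher), Ldhb (at least 6.63, with a saturated Con spot) and Slc25a13 (at least 18.1-fold higher), where Acss1 and Slc25a13 were not well above background in WT cells. Slc25a10 was 2.62 lower, the citrate carrier Slc25a1 2.59 lower, and D2hgdh at least 2.71-fold lower. Such a bound sets the brighter group's mean against the detection floor of the dimmer group, the faintest signal called above background on each array.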

How the data were processed

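RNA (100 ng) was labelled and hybridised to 1-colour arrays, 1 per sample. The authors quantified each array with Agilent Feature Extraction 9.5.1.1 and deposited intensity values for every spot: the mean, the local background, and a processed intensity from which background had been subtracted and spatial trends removed, without scaling between arrays. Probe coordinates are on mm9. The authors also deposited a matrix holding the ratio of processed intensity to 1 constant per array. All 12 C2C12 columns matched the scanner file of the same name within 0.01, but only 1 of 7 soleus columns did, so the matrix served by group, as an alternative. Scaling to the 75th percentile assumes that this percentile marks the same abundance on all arrays.

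Outlier and control spots were dropped, saturated spots were kept, and repeat spots were averaged. Current symbols came from RefSeq accessions for 27198 probes, while 13976 retained the deposited name. A gene was read at its probe of highest mean over all arrays, and was tested where that probe exceeded background on all arrays of either group. Groups were fitted with limma 3.58.1 (R 4.3.3; tables were read with version 1.17.8 of the data.table package), and p was adjusted over all genes by Benjamini-Hochberg, with a threshold of 0.05. Single members were also compared by exact permutation tests, two-sided, with SciPy 1.17.1 and pandas 2.3.3 in Python 3.11.15, and figures were drawn with matplotlib 3.10.9. The steps were tested on data simulated with each gene's own spread, where 200 genes were given a log2 change of 2. Of these, 100% were recovered in C2C12 cells, 87% between muscle and cells and 48% between db and Con. Many changes of that size would thus be missed between db and Con.

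Members and lists were chosen with earlier results of these data known. In C2C12 cells every measured member is named. In the other comparisons members past the adjusted p, otherwise those whose groups did not overlap, are named by size, at most 15. From the list of other pathway genes the 3 largest rises and 3 largest falls past the adjusted p are named, and 1 gene of that list is not reported here. Marker lists covered muscle fibres, myoblasts, adipocytes, erythroid cells, macrophages, endothelium and fibroblasts.

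Deviations from the group mean correlated between same-numbered arrays of the compared groups, at 0.194 to 0.552 in C2C12 (6 pairs) and 0.399 to 0.687 in soleus (3 pairs). For differently numbered arrays sharing a slide the correlations were 0.221 to 0.529 and 0.313 to 0.742, and across slides -0.476 to 0.0484 and -0.645 to -0.388. The replicate number is therefore a marker of the slide. Within a group, arrays correlated at 0.988 to 0.998 in C2C12 and 0.829 to 0.985 in soleus, with no duplicates. For both C2C12 groups and db the study's methods give fewer replicates than there are arrays. Alternatives were quantile normalization, normexp with an offset of 50, no filter or a stricter filter on dim probes, other rules for the probe of a gene, outlier spots kept, slide or replicate number as a block, the methods' t-test, the deposited matrix, and soleus arrays left out in turn.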

Additional observations from a re-analysis of the deposited data

Results flagged for a closer look

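In 8 of 87 sets of 4 or more values of a member in a group, 1 array lay apart from the others by Dixon's criterion, beside 4.35 that chance gives. Of these 5 were on the C2C12 HDAC4&5 array of replicate 6, which had the lowest 75th percentile of the C2C12 arrays (an intensity of 401). On it Pdha1 was at 4.41 (others 3.80 to 3.97), Idh3g at 5.73 (5.22 to 5.39), Pcx at 2.88 (2.34 to 2.54), Idh3a at 3.55 (3.27 to 3.33) and Pdk3 at 0.63 (0.40 to 0.47), each the highest of its group. In the WT group Aco1 was low on replicate 4 at 3.28 (3.39 to 3.42). Me3 was high on WT replicate 5 at -3.60 (-3.90 to -3.83) and Sdhc on WT replicate 6 at 4.02 (3.75 to 3.81).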

How the results depend on the processing

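In C2C12 cells the count of 23 members past the adjusted p lay between 19 and 26 under the alternatives other than normexp, which left 15 (6 higher, 9 lower), and the members' median of 0.02 moved to -0.22 in the deposited matrix. With the replicate number as a block 26 members passed in C2C12 cells (12 higher, 14 lower), adding Acly, Aco1 and Dld, and 0 in soleus muscle, and this block changed no other call of a member. With slide as the block 26 passed (13 higher, 13 lower), adding Acly, Aco1 and Me2. In soleus muscle 1 member passed with slide as a block and 2 with slide 4 arrays alone, both at single dim spots, and 0 under every other alternative run. Genes called there numbered 2, with 0 under normexp, the stricter filter, the deposited matrix and without Con replicate 1 or 2, 1 without a filter, with outlier spots kept, by the methods' t-test and without Con replicate 3 or db replicate 2, 3 or 4, 3 with quantile normalization or the replicate block, 5 without db replicate 1, and 46 and 26 in those 2 slide fits. Leaving out each soleus array in turn gave 0 members called in each case and a median of 0.0145 to 0.280 (db against Con), and 32 to 34 called and a median of 1.82 to 2.08 (muscle against cells).

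Directions turned for some members, of which Pdk2 and Mdh1 had passed the test. With normexp Aco1 was at -0.0151, Pdhx at -0.0375, Sucla2 at -0.13 and Pdk2 at 0.0392. With the mean of all probes Pdhx was at -0.19 and Sucla2 at -0.61. With unsaturated probes Cs was at -0.49. In the deposited matrix Aco1 was at -0.10, Mdh1 at -0.0526, Me2 at -0.0745, Pdhx at -0.18 and Sucla2 at -0.14. In soleus muscle Pdk1 was at 0.14 with outlier spots kept and at 0.38 in the matrix. The cause was not tested. Otherwise, single C2C12 members kept side and sign in 467 recomputed values, fell short of the threshold in 21, passed it in 11 and moved beyond the spread in 2, and the 15 members named in the tissue comparison kept theirs in all 171. The all-gene median of muscle against cells moved from -0.03 to -0.29 with quantile normalization and to 0.21 with normexp. The small number of soleus arrays and the saturated and outlier spots there limit the precision to the intervals given.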
